A study of Mus musculus with 6 samples.

Results

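The 7 genes described here encode the kinase PERK (Eif2ak3), the transcription factors ATF4 (Atf4), CHOP (Ddit3) and ATF3 (Atf3), and the proteins TRIB3 (Trib3), CHAC1 (Chac1) and GADD34 (Ppp1r15a), which act downstream of or feed back on those factors. They were taken by gene symbol from a table of 16426 genes, and all 7 were found there. RNA was sequenced from whole liver of 6 male C57/BL mice. The labels place 3 mice in a group that received 20% carbon tetrachloride (CCl4), a solvent toxic to hepatocytes, over 10 weeks to bring on fibrosis, and 3 mice in a normal group that received saline. The design text also names mice treated with both CCl4 and the flavonoid didymin, which were not analysed here.

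The table compares one set of 3 libraries (ly_A, here set A) with another set of 3 (ly_B, here set B). No label of a mouse carries either name, so which group a set holds is not known, and no difference below is stated as an effect of CCl4. The 18 columns of single libraries were left out for the same reason, so levels per mouse, their spread and the depth behind each gene are not given. Every value is the authors' own, and the table gives no standard error. A log2 fold change is read as set A over set B, so that a negative value means a lower level in set A. A gene was called when the authors' adjusted p was under 0.05.

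The integrated stress response is a pathway that slows protein synthesis when a cell is under strain. PERK, a kinase in the membrane of the endoplasmic reticulum, senses unfolded proteins and phosphorylates the translation factor eIF2, which lowers general translation while favouring that of ATF4. ATF4 then raises the transcription of genes for amino acid supply and of Ddit3, Atf3, Trib3 and Chac1, and GADD34 brings a phosphatase to eIF2 that ends the response. In liver, a secretory organ, the pathway is known for its response to toxins, nutrient shortage and an overload of protein folding.

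Of the 7 genes, 6 were lower in set A than in set B by the authors' deposited table, and Chac1 did not pass. All 7 log2 values were negative. In the same table, 2499 of 14114 genes tested (17.7%) were lower in set A and 2554 (18.1%) were higher. The median log2 fold change of the 7 genes per the authors' deposited table was -1.47, against 0.07 over all genes tested. The 7 genes were listed with earlier results of these data known, so their count describes these genes and is not an independent test of the pathway. In whole liver, fewer cells of a type and less RNA per cell cannot be told apart.

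**Figure D1:**
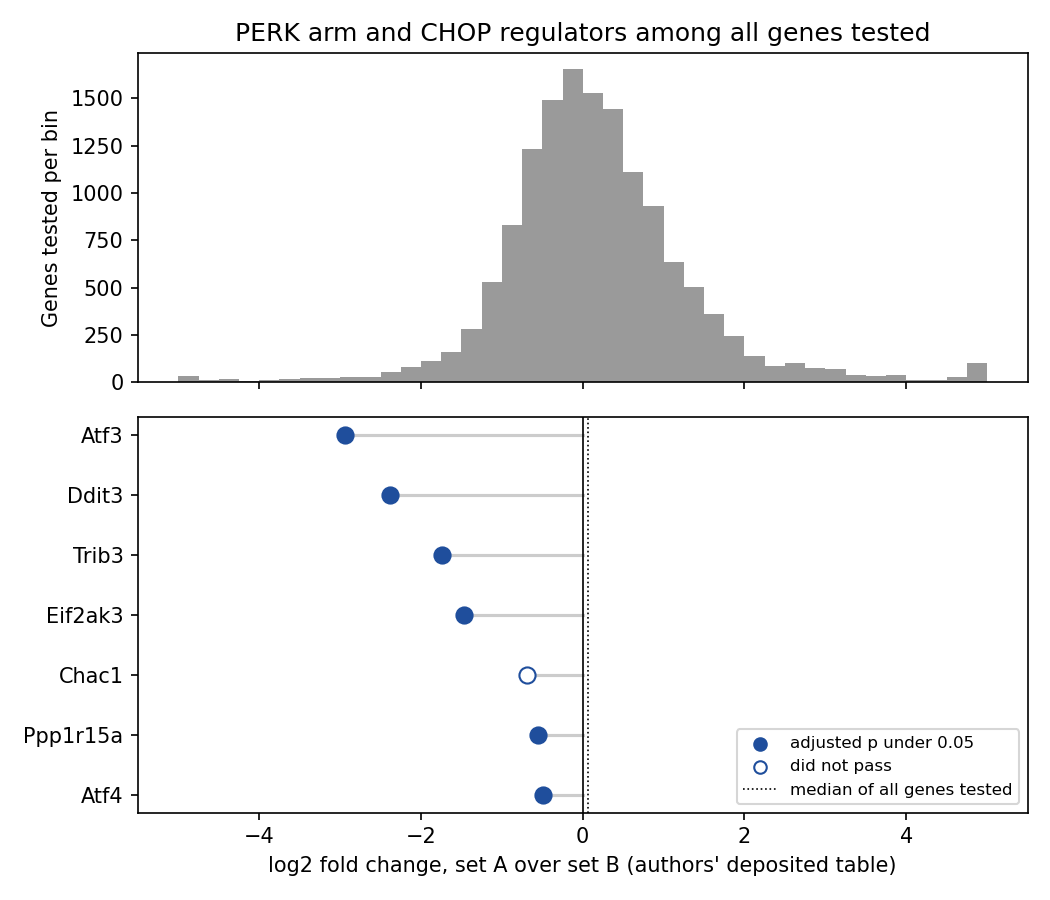
Log2 fold change of set A over set B by the authors' deposited table. Above, grey bars count the genes tested in steps of 0.25, and the outermost bars also hold all values beyond -5 and 5. Below, 1 point stands for each of the 7 genes, filled where the adjusted p was under 0.05 and open where it was not, and the dotted line is the median of all genes tested (0.07). All 7 points lie left of 0, from -2.94 for Atf3 to -0.49 for Atf4.

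Eif2ak3 was 2.77-fold lower in set A than in set B per the authors' deposited table (log2 fold change -1.47, adjusted p = 3.58e-08). Of the 14114 genes tested, 637 had a more negative log2 value than Eif2ak3 in that table. Atf4, the factor through which the arm acts on transcription, was 1.41-fold lower in set A by the authors' deposited table (log2 fold change -0.49, adjusted p = 0.0120). That was the smallest difference of the 7 genes per the authors' deposited table, and 3525 genes tested (25.0%) had a more negative value. The difference between Eif2ak3 and Atf4 was not tested. ATF4 protein is controlled mainly through translation, which these mRNA values do not measure.

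Ddit3, whose product CHOP promotes cell death in prolonged stress, was 5.23-fold lower in set A by the authors' deposited table (log2 fold change -2.39, adjusted p = 1.19e-13). By its p it stood at rank 150 of the 14114 genes tested per the authors' deposited table, ahead of the other 6 genes. Atf3, a stress-induced repressor and activator of the same family, was 7.69-fold lower in set A by the authors' deposited table (log2 fold change -2.94, adjusted p = 0.000934). Atf3 thus had the largest difference of the 7 genes per the authors' deposited table, with 149 genes tested more negative, but stood only at rank 2292 by its p. The size of a difference and its p gave different orders among these genes, as the plot of log2 fold change against adjusted p shows.

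**Figure D2:**
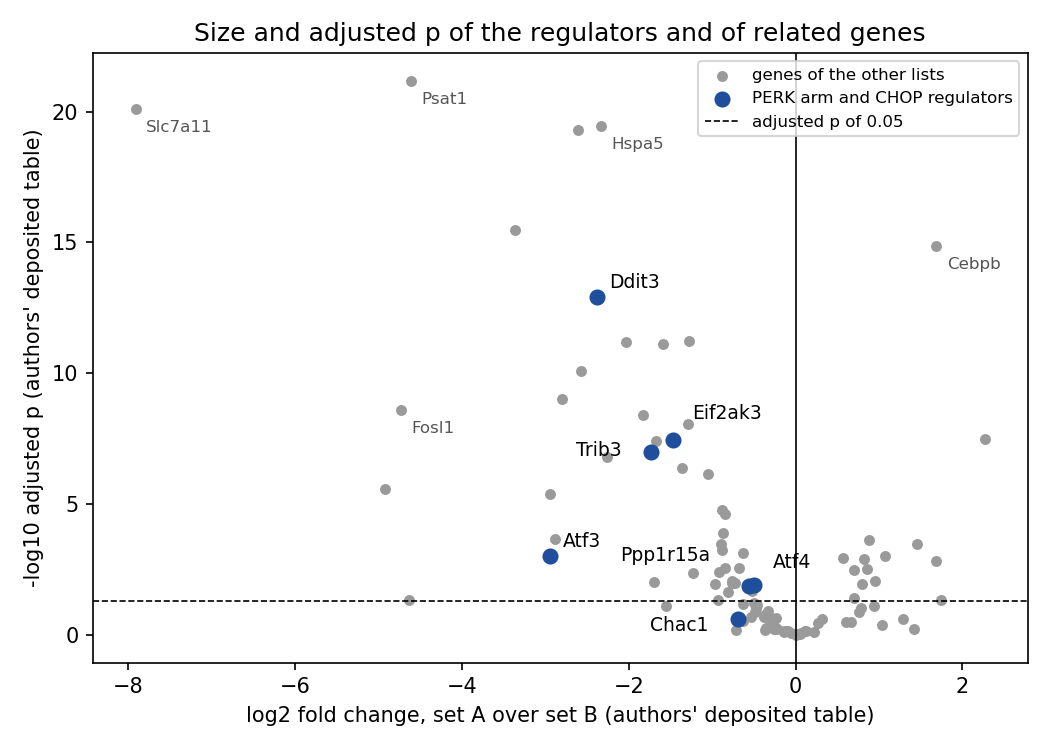
Log2 fold change of set A over set B (x axis) and -log10 of the adjusted p (y axis), both from the authors' deposited table. Blue points are the 7 genes, grey points the tested genes of the 8 related lists, and the dashed line marks an adjusted p of 0.05. Ddit3 stands highest of the blue points, Atf3 farthest left, and Chac1 is the blue point under the line.

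Of the 3 genes for downstream and feedback proteins, Trib3 and Ppp1r15a were called and Chac1 was not. Trib3, a pseudokinase that binds ATF4 and CHOP and dampens their activity, was 3.33-fold lower in set A by the authors' deposited table (log2 fold change -1.74, adjusted p = 9.98e-08). Ppp1r15a, the stress-induced subunit of the eIF2 phosphatase, was 1.47-fold lower in set A per the authors' deposited table (log2 fold change -0.56, adjusted p = 0.0139). Chac1, an enzyme that breaks down glutathione, had a log2 value of -0.69 by the authors' deposited table and did not pass (adjusted p = 0.233). Its log2 value was more negative than that of Ppp1r15a and of Atf4, both of which passed, and no interval is given in the table for any of them. A difference in Chac1 was therefore neither called nor shown to be absent.

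The calls of Atf4 and Ppp1r15a depended on the threshold. At an adjusted p under 0.01 or with a Benjamini-Yekutieli adjustment, which allows for any dependence between genes, 4 of the 7 genes were lower in set A per the authors' deposited table, namely Eif2ak3, Ddit3, Atf3 and Trib3. With a difference of at least 2-fold required beside the adjusted p under 0.05, the same 4 genes remained. The shares of all genes tested that were lower in set A under these rules were 12.7% for an adjusted p under 0.01, 11.3% for the Benjamini-Yekutieli adjustment and 7.85% for the 2-fold limit. The shares higher in set A were 12.3%, 10.6% and 10.9% under the same rules in that order. An adjustment over all 16426 rows called the same 6 genes and gave 17.0% lower and 17.4% higher in set A.

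The sequence before the start of these genes was then read, because ATF4 with its C/EBP partners binds a composite element and 6 of the 7 genes were called in one direction. RefSeq windows on GRCm38.p6, from 250 bases before the annotated start of transcription to 50 bases from it, were found for all 7 genes. The submitters' processing notes name mm9 as the build, so these coordinates belong to the sequences alone. Windows were searched on both strands for TTGCATCA, the core of the C/EBP-ATF response element, for its looser form TGATGNAA, for the cyclic AMP response element TGACGTCA and its short form TGACG, for the AP-1 site TGANTCA and for the endoplasmic reticulum stress element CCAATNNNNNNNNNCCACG. Every match of the core is also a match of the looser form read on the other strand, and every match of the cyclic AMP response element holds its short form.

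The 3 windows with a form of the C/EBP-ATF element, which this pathway is known for, are shown 5′ to 3′ on the strand of the gene. The 1 window with a whole cyclic AMP response element, that of Ppp1r15a, is shown in the same way and held no C/EBP-ATF match. Capitals mark the match. The windows are chr1:191183284-191183583 on the minus strand for Atf3, chr2:119350992-119351291 on the plus strand for Chac1, chr2:152344011-152344310 on the minus strand for Trib3 and chr7:45526219-45526518 on the minus strand for Ppp1r15a.
Atf3: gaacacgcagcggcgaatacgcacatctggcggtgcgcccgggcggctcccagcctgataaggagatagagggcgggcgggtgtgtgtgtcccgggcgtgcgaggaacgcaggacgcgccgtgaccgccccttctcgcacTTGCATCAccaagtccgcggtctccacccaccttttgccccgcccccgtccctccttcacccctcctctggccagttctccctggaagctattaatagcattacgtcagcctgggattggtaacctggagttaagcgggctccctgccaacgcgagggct
Chac1: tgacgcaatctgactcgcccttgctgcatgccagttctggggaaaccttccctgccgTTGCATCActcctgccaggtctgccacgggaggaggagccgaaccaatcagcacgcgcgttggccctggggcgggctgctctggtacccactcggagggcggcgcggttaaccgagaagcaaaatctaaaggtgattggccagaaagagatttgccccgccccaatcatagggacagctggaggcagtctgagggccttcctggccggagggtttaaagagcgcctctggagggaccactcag
Trib3: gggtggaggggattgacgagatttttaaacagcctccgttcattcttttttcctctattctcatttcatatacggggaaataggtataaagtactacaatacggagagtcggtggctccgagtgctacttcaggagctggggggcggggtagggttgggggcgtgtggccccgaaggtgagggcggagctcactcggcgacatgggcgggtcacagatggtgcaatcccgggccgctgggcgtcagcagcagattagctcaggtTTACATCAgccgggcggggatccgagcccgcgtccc
Ppp1r15a: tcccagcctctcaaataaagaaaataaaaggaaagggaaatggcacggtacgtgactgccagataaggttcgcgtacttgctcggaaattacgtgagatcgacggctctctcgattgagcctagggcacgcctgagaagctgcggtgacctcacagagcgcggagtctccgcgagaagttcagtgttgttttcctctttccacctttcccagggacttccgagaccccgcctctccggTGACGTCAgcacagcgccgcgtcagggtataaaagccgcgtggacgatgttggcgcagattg

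Counting the first transcribed base as 0, the core TTGCATCA lay at -110 to -103 in Atf3 and at -193 to -186 in Chac1. It occurred in 2 of the 7 windows, against 251 of 27025 windows of all genes (0.929%) and 76 of the 11006 windows of genes tested (0.691%), where each gene was counted by its first listed window. Trib3 held the looser form as TTACATCA at 14 to 21, after the start, and with it the looser form occurred in 3 of the 7 windows, against 4.06% of all windows and 2.42% of those of genes tested. Ppp1r15a held the only whole cyclic AMP response element of the 7 windows, at -12 to -5, an element found in 1.88% of all windows and 3.09% of those of genes tested. The short form TGACG was found in Atf4, Atf3, Trib3, Chac1 and Ppp1r15a, against 5681 of the 27025 windows and 3305 of the 11006 of genes tested. AP-1 letters occurred in Eif2ak3 at -185 to -179 and in Ddit3 at -242 to -236, against 7.93% of all windows and 5.51% of those of genes tested. The endoplasmic reticulum stress element occurred in 0 of the 7, against 0.13% of all windows and 0.164% of those of genes tested.

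Whether the C/EBP-ATF core goes with the calls was not tested, and 2 carriers are too few to show it. Of its 2 carriers, Atf3 had the largest log2 difference of the 7 genes and Chac1 did not pass, by the authors' deposited table. Ddit3, with the smallest p, held none of the C/EBP-ATF letters searched in this window. A match describes letters and not a bound site, and a missing match speaks of this window alone.

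**Figure D3:**
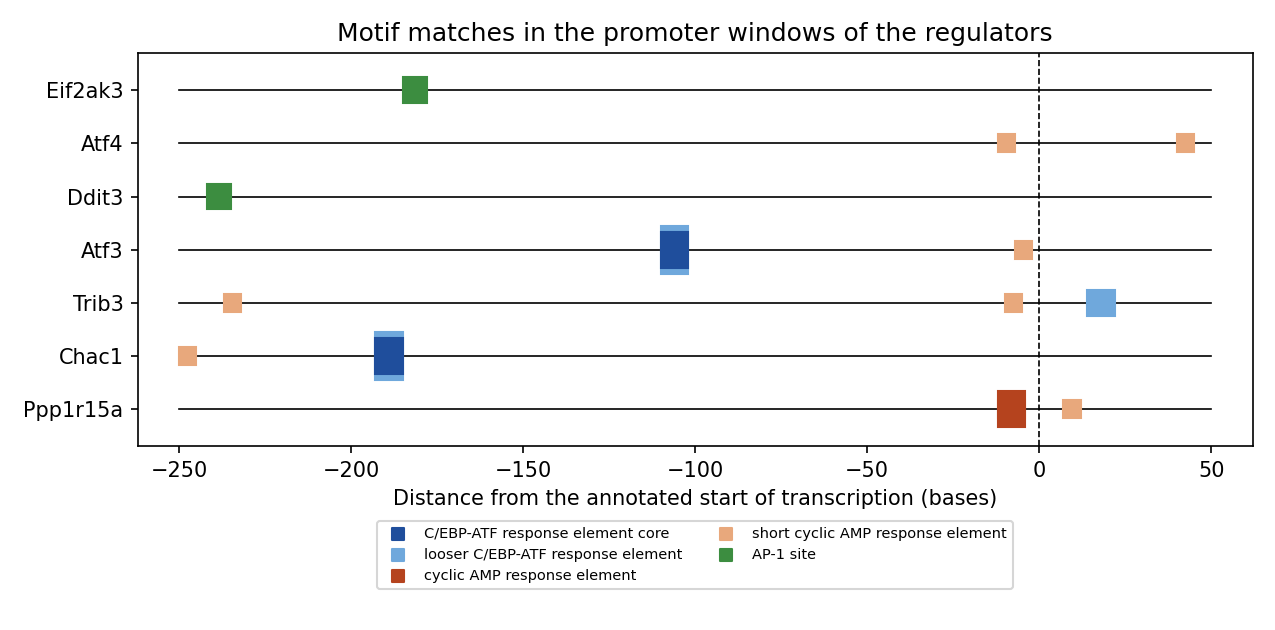
Motif matches in the 7 promoter windows, by distance in bases from the annotated start of transcription (dashed line at 0). Dark blue marks the C/EBP-ATF core, light blue the looser form (also drawn behind each core), red the cyclic AMP response element, orange its short form and green the AP-1 site, and short forms inside the red box of Ppp1r15a are covered by it. The core stands in Atf3 and Chac1, and the whole cyclic AMP response element in Ppp1r15a just before the start.

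Upstream start codons, which let ATF4, CHOP and GADD34 be translated while eIF2 is phosphorylated, were counted in 1 GENCODE M21 transcript for each gene. Atf4 had 3 ATG triplets in its 5′ untranslated region of 594 bases, and the reading frame of 1 of them ran out of frame into the coding sequence. Ppp1r15a had 3 in 283 bases, Ddit3 2 in 186 bases, Eif2ak3 3 in 211 bases, 2 of them running on in the same way, and Atf3 1 in 252 bases. Trib3, with 176 bases, and Chac1, with 174 bases, had 0. Thus 5 of the 7 transcripts held an upstream ATG, against 51.5% of 13763 tested genes with such a region. The 5 were spread over the whole range of differences, from Atf3 at -2.94 to Atf4 at -0.49 per the authors' deposited table.

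Exons of 3 of the 7 genes overlap those of a gene on the other strand in GENCODE M21. Ddit3 shares 68 of 1713 exon bases with Mars and 13 with Gm4189, Eif2ak3 shares 485 of 6026 with Gm43292, and Ppp1r15a shares 12 of 2937 with Tulp2. Whether reads were counted by strand is not given in the sources used here, so reads from these stretches cannot be told apart. Atf4, Atf3, Trib3 and Chac1 overlap no exon of another annotated gene there.

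Among the other kinases of eIF2, 1 of 3 was lower in set A by the authors' deposited table. These are too few to set against the 17.7% over all genes tested. Eif2ak2, the interferon-induced kinase PKR that senses double-stranded RNA, stood at -0.85 (adjusted p = 0.00278) per the authors' deposited table. Eif2ak4, the kinase GCN2 that senses amino acid shortage, stood at -0.47 (adjusted p = 0.0990) and Eif2ak1, the heme-regulated kinase, at -0.05 (adjusted p = 0.865) by the authors' deposited table, and neither passed. The difference between Eif2ak3 and these kinases was not tested.

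The mRNAs listed for eIF2, which these kinases phosphorylate, were also lower in set A, and its protein was not measured. All 3 genes listed for subunits of eIF2 were called per the authors' deposited table. In that table Eif2s1, the subunit that is phosphorylated, stood at -0.88 (adjusted p = 0.000554), Eif2s2 at -0.88 (adjusted p = 1.63e-05) and Eif2s3x at -0.91 (adjusted p = 0.00400). Of the 5 subunits of its exchange factor eIF2B, which phosphorylated eIF2 inhibits, Eif2b3 at -0.76 and Eif2b5 at -0.52 were lower in set A by the authors' deposited table (adjusted p at most 0.0211). Both calls ended at an adjusted p under 0.01 and under the Benjamini-Yekutieli adjustment. Eif2b2 at -0.32, Eif2b4 at -0.10 and Eif2b1 at 0.03 did not pass per the authors' deposited table. The 8 genes had a median of -0.64 and 5 calls lower in set A by the authors' deposited table, and none reached a 2-fold difference. The share lower in set A over all genes tested was 17.7%.

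Of 7 tested genes that act on PERK or on the eIF2 phosphatase, 4 were lower in set A per the authors' deposited table. The other 3 did not pass, and the median was -0.76. Over all genes tested, 17.7% were lower in set A. Hspa5, the chaperone BiP that holds PERK inactive, was at -2.34 and Dnajc3, the inhibitor p58IPK, at -1.36 by the authors' deposited table (adjusted p at most 4.17e-07). The adaptor Nck2 at -0.97 and the phosphatase subunit Ppp1cb at -0.76 also passed per the authors' deposited table (adjusted p at most 0.0115), and both calls ended under the Benjamini-Yekutieli adjustment, that of Nck2 also at an adjusted p under 0.01. Ppp1r15b, the constitutive counterpart of Ppp1r15a, stood at -0.23 by the authors' deposited table and did not pass (adjusted p = 0.228), like Nck1 at -0.48 and Ppp1cc at 0.32. Ppp1ca was not analysed here.

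Of 3 tested genes listed as other sensors of unfolded proteins, 2 were lower and 1 higher in set A by the authors' deposited table. They are too few to set against the 17.7% lower and 18.1% higher over all genes tested. Ern1, the kinase and RNase IRE1, stood at -1.83 and Atf6 at -1.30 per the authors' deposited table (adjusted p at most 8.49e-09). Eif2ak3 lay between them at -1.47 in that table. Creb3l3, a liver factor activated by cleavage like ATF6, was higher in set A at 0.57 by the authors' deposited table (adjusted p = 0.00117), and Ern2 was not tested.

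Partners of ATF4, CHOP or ATF3 and related factors of the bZIP family were mostly called lower in set A where they were called. Of 22 tested, 9 were lower and 1 was higher in set A per the authors' deposited table, with a median of -0.42. Over all genes tested, 17.7% were lower and 18.1% higher, so the lower calls lie above their share and the higher call under its own. This list too was written with earlier results of these data known, so its counts describe these genes and are not an independent test. Fosl1 at -4.73, Fos at -2.60, Atf6 at -1.30 and Jun at -1.22 had, among the called genes of this list, the largest differences towards set B by the authors' deposited table (adjusted p at most 0.00437). Fosb at -1.56 lay beyond Atf6 and Jun but did not pass per the authors' deposited table (adjusted p = 0.0753), and is named after its value was seen. Cebpb, which dimerises with ATF4 and CHOP, was 3.22-fold higher in set A per the authors' deposited table (log2 fold change 1.69, adjusted p = 1.37e-15). It was the only called gene of this list that differed in the direction opposite to Atf4 and Ddit3. Its relative Cebpg, the other C/EBP partner of ATF4 in this list that passed, was lower in set A at -0.67 by the authors' deposited table (adjusted p = 0.00264) and is named after its value was seen.

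Of 4 close relatives of the 7 genes, 1 was higher in set A and 0 were lower by the authors' deposited table, too few to set against the 18.1% and 17.7% over all genes tested. Chac2, a paralogue of Chac1, was higher in set A at 0.70 per the authors' deposited table (adjusted p = 0.0376), a call that ended under 3 of the 4 alternatives. Trib1 at -0.23 (adjusted p = 0.513) and Trib2 at 0.61 (adjusted p = 0.323), paralogues of Trib3, and Atf5 at -0.11 (adjusted p = 0.706), the nearest relative of Atf4, did not pass by the authors' deposited table. Whether these genes differ from their relatives among the 7 was not tested.

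Known targets of ATF4 and CHOP were called in both directions, with more called lower in set A. Of 39 tested, 17 were lower and 9 higher in set A per the authors' deposited table, with a median of -0.62. Over all genes tested, 17.7% were lower and 18.1% higher. The 9 higher calls are near that share, and the 17 lower calls lie above theirs. These targets were also listed with earlier results of these data known, so the counts are not an independent test. The cystine transporter Slc7a11 at -7.91, the mitochondrial folate enzyme Aldh1l2 at -4.92, the peptide gene Adm2 at -4.63 and Psat1 of serine synthesis at -4.61 had, among the called targets, the largest differences towards set B by the authors' deposited table (adjusted p at most 0.0437, for Adm2). Stc2, a secreted glycoprotein, at 1.74, the lipoprotein receptor Vldlr at 1.68, the cysteine-forming enzyme Cth at 1.45 and the glutamine transporter Slc1a5 at 1.07 had the largest among the called ones towards set A per the authors' deposited table (adjusted p at most 0.0459, for Stc2). The calls of Adm2 and Stc2 ended at an adjusted p under 0.01, under the Benjamini-Yekutieli adjustment and with the adjustment over all rows (adjusted p = 0.0509 for Adm2 and 0.0534 for Stc2). Nars is the 1 tRNA synthetase gene of this list, at -1.28 by the authors' deposited table (adjusted p = 6.03e-12). Large log2 values are fitted, and the reads behind the lower set were not examined.

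The C/EBP-ATF core was found in 5 of the 32 windows available for these targets. Its share was 0.929% over all windows and 0.691% over those of genes tested. The 5 windows were those of Pycr1, Nupr1, Fgf21, Slc7a11 and Herpud1. Of these 5, Nupr1 at -3.36 and Slc7a11 at -7.91 were lower in set A per the authors' deposited table (adjusted p at most 3.35e-16). Pycr1 at -0.72, Fgf21 at -0.35 and Herpud1 at -0.14 did not pass by the authors' deposited table (smallest adjusted p = 0.547). The 5 carriers are too few to set against the 17.7% lower in set A over all genes tested. As among the 7 regulators, carriers of the core stood on both sides of the threshold, and a link between the core and the calls was not tested. Nupr1, Pycr1, Fgf21 and Herpud1 are named for the core and not for their values.

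**Figure D4:**
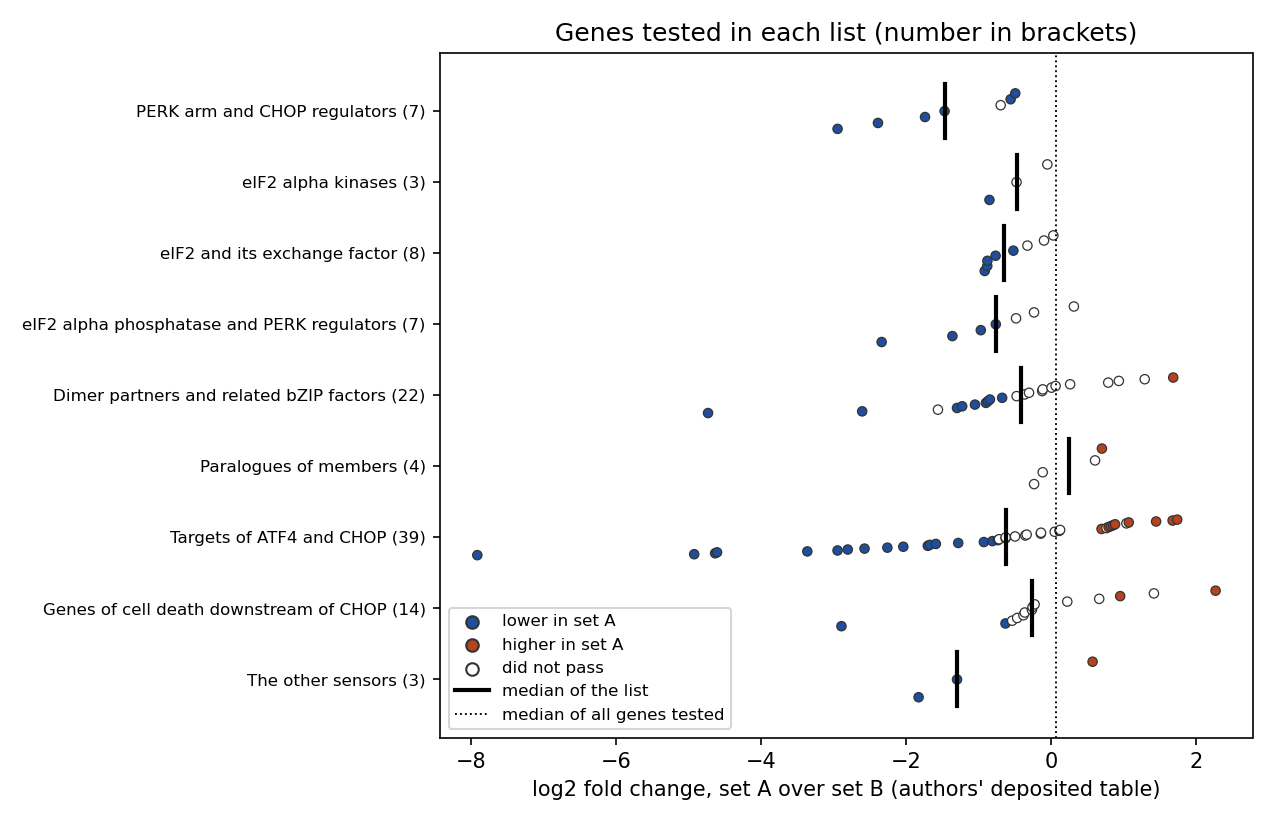
Log2 fold change of set A over set B per the authors' deposited table for the tested genes of the 7 regulators and 8 related lists, 1 point a gene, stacked by value within a list. Blue points were called lower in set A, red points higher, and open points did not pass, while thick bars are list medians and the dotted line is the median of all genes tested. The regulators have the most negative median (-1.47), and the targets of ATF4 and CHOP reach from -7.91 to 1.74.

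Of 14 tested genes of the cell death pathways in which CHOP acts, 2 were lower and 2 higher in set A by the authors' deposited table, with a median of -0.26. Both counts are near the shares over all genes tested (17.7% lower and 18.1% higher). Tnfrsf10b, a death receptor that CHOP induces, stood at -2.89 (adjusted p = 0.000210) and Mcl1, a survival protein, at -0.63 (adjusted p = 0.000759) per the authors' deposited table. Bik at 2.27 (adjusted p = 3.11e-08) and Bbc3 at 0.96 (adjusted p = 0.00862), which both promote death, were higher in set A by the authors' deposited table, and the call of Bbc3 ended under the Benjamini-Yekutieli adjustment. Among other pro-death BCL2 relatives, Bcl2l11 at -0.54, Pmaip1 at -0.36, Bax at -0.25, Bak1 at -0.23 and Hrk at 1.42 did not pass. These values, by the authors' deposited table, are named after they were seen, and no direction is read from the calls.

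Some markers of liver cell types were also called, and their part in the values of the 7 genes was not tested. Over all genes tested, 17.7% were lower and 18.1% higher in set A. Hepatocyte markers had 4 genes higher and 1 lower in set A of 7 tested per the authors' deposited table, and Alb did not pass (log2 fold change 0.19, adjusted p = 0.565). Higher in set A were 5 of 6 endothelial markers, 3 of 8 macrophage markers and 4 of 7 T and B cell markers by the authors' deposited table, and the rest of these did not pass. Stellate cell markers had 1 of 7 tested lower (Pdgfrb at -0.67, a call that ended under the Benjamini-Yekutieli adjustment) and cholangiocyte markers 1 of 5 lower (Sox9 at -1.68) per the authors' deposited table, and the 3 neutrophil markers tested did not pass (smallest adjusted p = 0.160). The lower calls among stellate cell and cholangiocyte markers, 1 in each list, are near the 17.7% over all genes tested. The columns that would give levels per library were left out, so summed marker levels are not given.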

How the data were processed

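RNA from liver of 6 mice was sequenced; the labels' protocols name Trizol extraction of total RNA and a NEBNext Ultra library kit. The submitters' processing notes name DESeq2, without a version, and the build mm9; for the aligner, read counter, annotation and strand setting nothing is stated in the labels. The deposited table holds the authors' log2 fold change, p-value and adjusted p-value for each gene symbol. Its 18 columns of single libraries match no labelled sample and were not used, so depth per sample, leave-one-out fits and other tests were not computed, and no precision is given. The direction was taken from the comparison's name, and no check of it was computed.

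The deposited adjusted p was exactly 1 in 2312 of 16426 rows. In the other 14114 rows it equalled a Benjamini-Hochberg adjustment over those rows to within a relative 9.47e-13, so those 14114 were taken as the genes tested. The adjustments were tested on simulated data. The members, the 8 related lists and the marker lists were chosen with earlier results of these data known. All genes of lists of up to 8 genes were named, and of longer lists the 4 called genes farthest from 0 on either side. Genes with like patterns across samples were not sought, for want of library columns.

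Promoter windows were RefSeq sequences on GRCm38.p6, 1 per gene (the first listed), and transcripts came from GENCODE M21, preferring the APPRIS principal form. Python 3.11.15, pandas 2.3.3, NumPy 2.4.6, SciPy 1.17.1 and matplotlib 3.10.9 were used.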

Additional observations from a re-analysis of the deposited data

How the results depend on the processing

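All directions are the authors' fitted values and were the same under every alternative, since the alternatives changed only which genes were called. The 6 calls among the 7 regulators fell to 4 at an adjusted p under 0.01, with a 2-fold difference as well and under a Benjamini-Yekutieli adjustment, where Atf4 and Ppp1r15a no longer passed, and stayed at 6 with an adjustment over all rows, which moved no count in any list by over 1.5 times but ended the calls of Adm2, Asns and Stc2 among the targets. Of all genes tested, 1108 were lower and 1542 higher in set A with a 2-fold difference, and 1598 and 1503 under Benjamini-Yekutieli. With the 2-fold difference, calls lower in set A numbered 0 among other eIF2 kinases, 0 in eIF2 and eIF2B, 2 in the phosphatase and PERK regulators, 5 among dimer partners and 1 among cell death genes. Calls higher in set A under that rule numbered 4 among the ATF4 and CHOP targets, 1 among cell death genes, 0 among the paralogues and 0 among the other sensors. In eIF2 and eIF2B 3 genes were lower in set A at an adjusted p under 0.01 and 3 under Benjamini-Yekutieli. Under Benjamini-Yekutieli 2 phosphatase and PERK regulators were lower in set A, 1 cell death gene was higher and 0 paralogues were higher, as were 0 paralogues at an adjusted p under 0.01. No paired analysis was possible because the library columns carry no label of a mouse or group; leaving out libraries, edgeR and other filters were not run for the same reason. The depth behind each value is not known here.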
